A study of Mus musculus with 1920 samples.

Results

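Ddr2, Tenm4, Gas7, Ablim1, Tmed6 and Oit1 are 6 of the 55471 genes counted in single intestinal stem cells (ISCs) of young and old mice. They were chosen from the measured values, because their reads were higher in cells of old mice and because the study lists them among its age-related genes. The age difference is therefore given here as a description, without a test, and all 6 were among the 20957 genes that passed a filter on low counts in the comparison of ages. What the choice did not use was tested within each mouse, namely how the genes vary with lineage and cell cycle markers.

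Cells sorted as Lgr5 high-ISCs came from small intestine crypts of 3 young and 4 old mice of the strain B6.129P2-Lgr5tm1(cre/ERT2)Cle/J, and no treatment is given in the labels. The allele puts a green fluorescent protein and a Cre recombinase under the Lgr5 promoter, is carried by young and old mice alike, and is known to be active in only some of the crypts. The sort excluded dead cells, and the ages in weeks are not in the labels. Single cells were sequenced by a Smart-seq2 method, in which full-length cDNA is amplified without molecular identifiers. Reads are thus not independent molecules, and intervals made from reads or cells cover counting error only.

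Ddr2 encodes a receptor tyrosine kinase that binds fibrillar collagen, and it is best known from mesenchymal cells. Tenm4 encodes a teneurin, a large transmembrane protein of cell adhesion. Gas7 encodes an F-BAR protein that shapes membranes along actin filaments, and Ablim1 encodes a LIM domain protein that binds actin. Tmed6 belongs to the p24 family, whose members carry cargo between the endoplasmic reticulum and the Golgi apparatus. Oit1, known also as Fam3d, encodes a small secreted protein of the gut. Lgr5+ cells at the crypt base renew themselves and give rise to secretory cells (Paneth, goblet, enteroendocrine and tuft cells) and to absorptive enterocytes, and the daughter cells divide while they leave the base.

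Of 1920 cells, 1836 had at least 1000 detected genes and were kept, 160 to 376 per mouse. A mouse had 49447464 to 134408884 reads on genes, and the median cell of a mouse had 211789.5 to 344567.5 reads and 8659 to 9949.5 detected genes. Lgr5 had a read in 93.1% to 99.5% of the cells of a mouse. Each cell was put in the class whose marker genes had the highest mean of log2(CPM + 1), with CPM the usual scaling of a cell's counts by its total. ISC markers led in 1575 cells (85.8%), Paneth markers in 144, enterocyte markers in 67, goblet markers in 40, tuft markers in 6, enteroendocrine markers in 3 and stromal markers in 1. ISC-led cells made up 87.5% to 93.8% of the cells of young mice and 74.9% to 90.5% in old mice, and Paneth-led cells 2.13% to 6.88% against 6.35% to 15.6%.

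The 6 genes lie on 6 chromosomes (GRCm38, GENCODE release 21 for mouse). Ddr2 (ENSMUSG00000026674) spans chromosome 1 from 169972307 to 170110762 on the minus strand. Tenm4 (ENSMUSG00000048078) spans chromosome 7 from 96171246 to 96911093 on the plus strand. Gas7 (ENSMUSG00000033066) spans chromosome 11 from 67455437 to 67688990 on the plus strand. Ablim1 (ENSMUSG00000025085) spans chromosome 19 from 57032733 to 57314919 on the minus strand. Tmed6 (ENSMUSG00000031919) spans chromosome 8 from 107061476 to 107065644 on the minus strand. Oit1 (ENSMUSG00000021749) spans chromosome 14 from 8348937 to 8378754 on the minus strand.

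The 250 bases before the transcription start are given for the 3 genes with 1 RefSeq promoter (GRCm38.p6), written 5′ to 3′ on the strand of the gene, since these genes are set side by side throughout. They were searched on both strands for short motifs of factors of the intestinal epithelium, which were picked after the sequences had been seen, and matches are in capitals. The Ddr2 window (chr1:170088945-170089194) lies inside the longer GENCODE gene and holds TTTATG (CDX factors) and CAAAGT (HNF4) read on the other strand, the Tmed6 window (chr8:107065645-107065894) holds GTTAAT (HNF1), and the Oit1 window (chr14:8378764-8379013) holds TTTATG.
Ddr2: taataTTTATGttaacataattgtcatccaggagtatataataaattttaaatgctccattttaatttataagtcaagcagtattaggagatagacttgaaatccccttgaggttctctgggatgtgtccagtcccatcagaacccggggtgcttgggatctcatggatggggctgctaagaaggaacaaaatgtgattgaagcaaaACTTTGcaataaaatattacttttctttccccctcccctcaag
Tmed6: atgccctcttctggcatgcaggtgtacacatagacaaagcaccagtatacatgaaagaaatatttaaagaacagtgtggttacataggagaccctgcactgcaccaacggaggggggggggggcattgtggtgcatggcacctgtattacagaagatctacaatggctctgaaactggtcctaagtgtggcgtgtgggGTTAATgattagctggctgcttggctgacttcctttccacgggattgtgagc
Oit1: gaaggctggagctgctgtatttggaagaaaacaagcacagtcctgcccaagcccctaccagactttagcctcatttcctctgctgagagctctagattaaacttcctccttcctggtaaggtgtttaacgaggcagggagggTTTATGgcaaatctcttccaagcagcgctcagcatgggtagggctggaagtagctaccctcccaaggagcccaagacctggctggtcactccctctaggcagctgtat
In promoters of this kind these letters are common. Of 32851 promoters of 300 bases 10.8% hold the CDX letters, 12.6% the HNF4 letters and 6.43% the HNF1 letters. Among the 10 promoters of Ddr2, Tenm4, Ablim1, Tmed6 and Oit1 the numbers are 3, 2 and 1. The TCF/LEF letters CTTTGA, which Wnt target genes can carry, occur in 13.8% of all promoters and in 0 of these 10. The GATA letters AGATAA occur in 9.99% of all promoters and in 1 of the 10. The AP-1 letters TGANTCA, in which N is any base, occur in 6.75% of all promoters and likewise in 1 of the 10. A match describes the letters only.

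Levels per mouse are the summed counts of its kept cells in CPM after TMM scaling, and all 6 genes were higher on average in old mice. Ddr2 was at 1.89, 0.574 and 0.681 CPM in young mice 1, 2 and 3, and at 14.2, 19.5, 24.7 and 14.4 CPM in old mice 1 to 4. Every old mouse thus lay above every young mouse. The mean level was 1.05 ± 0.73 CPM in young (SD, n = 3) and 18.2 ± 4.98 CPM in old mice (SD, n = 4), 17.4-fold higher, and the fitted log2 fold change was 4.16 (SE 0.49). Of all genes in the fit, 27 of 20957 had a log2 fold change as large as that of Ddr2 or larger, itself included. That rank describes the contrast by which Ddr2 was chosen, and nothing is read from it.

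Tenm4 was at 3.42, 2.08 and 1.26 CPM in the young mice and at 5.81, 19.6, 13.5 and 26.0 CPM in old mice 1 to 4. The groups did not overlap, but old mouse 1 was much nearer to the young mice than were the other 3. The means were 2.26 ± 1.09 CPM (SD, n = 3) and 16.2 ± 8.62 CPM (SD, n = 4), 7.20-fold higher in old mice, with a log2 fold change of 2.86 (SE 0.54).

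The genes of the cytoskeleton were less cleanly divided. Gas7 was at 44.3, 27.0 and 19.9 CPM in the young mice and at 70.5, 43.0, 69.9 and 57.6 CPM in the old mice. Old mouse 2 was just below young mouse 1, so that 3 of 4 old mice were above the highest young mouse, and the mean level was 1.98-fold higher (log2 fold change 0.99, SE 0.29). In ISC-led cells alone old mouse 2 had 48.8 CPM of Gas7 and young mouse 1 had 48.7 CPM. Ablim1 was at 6.87, 9.95 and 23.7 CPM in the young mice and at 36.9, 29.8, 21.2 and 48.4 CPM in the old mice. Here old mouse 3 was below young mouse 3, and the mean was 2.53-fold higher (log2 fold change 1.33, SE 0.43).

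Both genes of the secretory route were divided without overlap. Tmed6 was at 44.1, 26.8 and 30.0 CPM in young and at 73.1, 57.0, 94.0 and 57.1 CPM in old mice. The mean was 2.09-fold higher in old mice, with a log2 fold change of 1.06 (SE 0.25). Oit1 was at 69.0, 47.0 and 40.6 CPM in young and at 96.5, 91.0, 82.6 and 92.4 CPM in old mice. Its old mice lay close together, the mean was 1.73-fold higher, and the log2 fold change of 0.80 (SE 0.20) was the smallest of the 6. Over all genes tested, 2.51% had every old mouse above every young mouse. Among the 6 genes it was 4, and nothing is read from that count, since it is the contrast by which they were chosen. With Benjamini-Hochberg adjustment edgeR's quasi-likelihood test called 0 of 20957 genes (0%) between ages, 1098 had an unadjusted p under 0.05, and DESeq2 called 205.

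**Figure D1:**
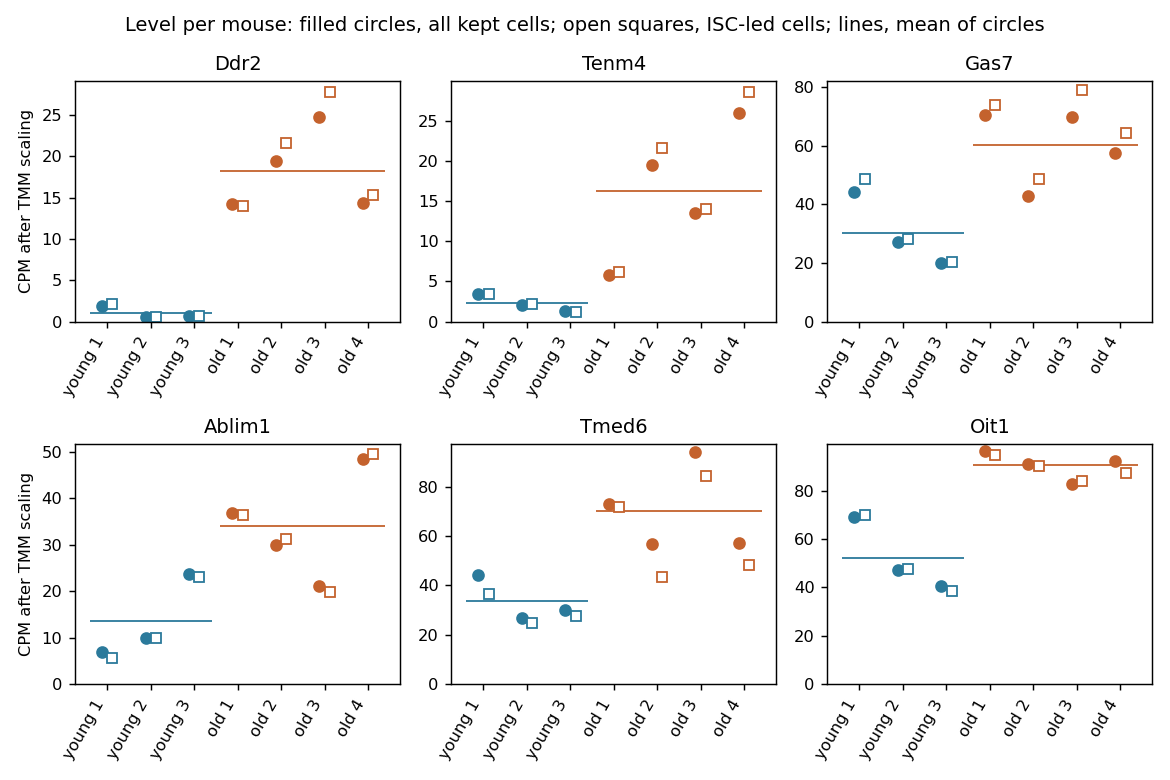
Level of each gene in every mouse, in CPM after TMM scaling (vertical axis, from 0). Filled circles are sums over all kept cells, open squares sums over ISC-led cells, blue young and orange old mice, and horizontal lines the mean of the circles. Ddr2, Tenm4, Tmed6 and Oit1 show no overlap of the ages, and Gas7 and Ablim1 have 1 old mouse below the highest young mouse in all kept cells.

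Counted per kilobase of exons, the order of the genes was the same in young and old mice. In old mice Tmed6 had 80.7, Oit1 57.8, Gas7 5.31, Ablim1 2.85, Ddr2 1.96 and Tenm4 0.77 CPM per kb. In young mice Ddr2 and Tenm4 were nearly level at 0.113 and 0.107 CPM per kb, below Ablim1 at 1.13 and Gas7 at 2.68, and far below Oit1 at 33.3 and Tmed6 at 38.6. The secretory pair was thus the most abundant at either age and the adhesion pair the least.

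A higher sum can come from more cells with a read, from more reads in such cells, or from both. Ddr2 had a read in 8.75%, 8.92% and 5.85% of the cells of young mice 1, 2 and 3, and in 26.5%, 41.9%, 40.2% and 40.2% of the cells of old mice 1 to 4. Where Ddr2 was read, the median cell of a mouse held 4.32 to 8.39 CPM in young and 17.5 to 23.5 CPM in old mice. Tenm4 had a read in 8.24% to 12.5% of the cells in young and in 16.9% to 55.5% in old mice, with old mouse 1 again the lowest. In cells with a Tenm4 read the median was 7.94 to 13.6 CPM in young and 26.1 to 32.2 CPM in old mice. For the adhesion genes both quantities were thus higher in each old mouse, in the contrast by which they were chosen.

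The other 4 genes were read in a large part of the cells already in young mice. Gas7 had a read in 31.6% to 39.4% of the cells of young and 65.6% to 73.8% of old mice, and Ablim1 in 20.6% to 47.6% against 59.8% to 77.9%. Tmed6 was read in 60.4% to 70.3% against 86.9% to 88.9%, and Oit1 in 76.3% to 85.7% against 91.0% to 94.8%. For none of the 6 genes did the ranges overlap. Of all genes tested 2.55% had a higher share in every old mouse than in every young mouse. It was 3.74% with each cell thinned to 100000 reads, which left out 104 shallower cells, and 1.38% with at least 5 reads asked of a cell, and under both the 6 genes again did not overlap. Nothing is read from these counts, since the genes were chosen on the same contrast.

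**Figure D2:**
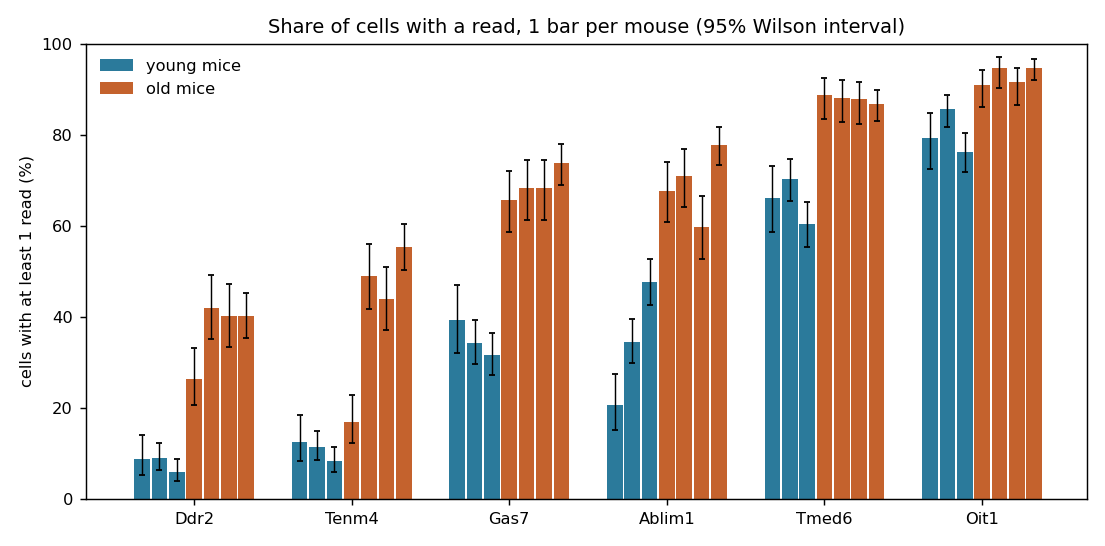
Percent of the kept cells of a mouse with at least 1 read of each gene (vertical axis, 0 to 100), 1 bar per mouse in the order young 1 to 3 (blue) and old 1 to 4 (orange). Error bars are 95% Wilson intervals, which cover counting error over cells only, and the old bars stand above the young bars, in the contrast by which the genes were chosen.

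A cell of a young mouse held reads of 2.27 to 2.45 of the 6 genes on average, and a cell of an old mouse 3.57 to 4.29. All 6 genes were read together in 0% to 1.25% of the cells of young mice and in 3.70% to 16.9% of those of old mice. Both values restate the contrast by which the genes were chosen, so nothing is read from them. The reads of Ddr2 were concentrated in few cells. Of 5759 reads in 420 cells the 10 highest cells held 32.5%, and 31 cells held 50%. The highest cell alone held 851 reads. By the sums per mouse, class and tertile it can only be a cell of old mouse 3, which had 1679 Ddr2 reads. The level of that mouse, 24.7 CPM and the highest of the 7, thus rests in large part on 1 cell. For Ablim1 the 10 highest of 998 cells held 7.42% of 16407 reads, the lowest share of the 6, and 157 cells held 50%, against 227 cells for Oit1. With every cell given equal weight the log2 fold changes were 4.14 for Ddr2, 2.45 for Tenm4, 1.05 for Gas7, 1.23 for Ablim1, 0.88 for Tmed6 and 0.80 for Oit1.

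The cell names end in 1 of 5 codes, each carried by 384 cells, of which 3 were shared by a young and an old mouse. The methods give 384 cells to a sequencing lane, but no label calls the code a lane. The old mouse was above the young mouse in each of the 3 codes for 11.3% of all genes tested and for all 6 here, and nothing is read from that count, since the genes were chosen for this direction. Ddr2 (plain CPM) was at 14.3 in old mouse 1 against 0.440 in the cells of young mouse 2 with the same code, at 24.1 in old mouse 3 against 1.88 in young mouse 1, and at 19.4 in old mouse 2 against 0.753 in the other cells of young mouse 2. The smallest ratio for Tmed6 was 91.5 against 43.8 CPM, in the code of old mouse 3 and young mouse 1. Oit1 and Gas7 were nearer in that code, at 80.5 against 68.7 CPM and at 68.1 against 44.0 CPM. With the code as a block the log2 fold changes were 4.50 for Ddr2, 2.21 for Tenm4, 0.93 for Gas7, 1.71 for Ablim1, 1.20 for Tmed6 and 0.74 for Oit1. That fit holds 6 samples from 5 mice, since young mouse 2 enters once for each of its codes, and old mouse 4 and young mouse 3 are not in it.

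Because Ddr2 is best known from mesenchymal cells, markers of other cells were read beside it. The 8 stromal markers summed to 1.24 to 3.13 CPM in young and 1.16 to 2.78 CPM in old mice. Pdgfrb was the highest of them, with means of 2.06 CPM in young and 1.47 CPM in old mice. Col1a1, the main chain of fibrillar collagen, was at a mean of 0.0213 CPM in young and 0.00964 CPM in old mice. Col3a1 was also lower in old mice. Acta2 (0.176 CPM in young and 0.358 CPM in old mice), Lum (0.00466 and 0.0381 CPM), Col1a2 and Dcn were higher in old mice, and Pdgfra was level. The 4 endothelial markers summed to 1.23 to 1.92 CPM in young and 0.0345 to 16.2 CPM in old mice. In old mice 14.8% of the 351 cells with a Ddr2 read had a stromal read, against 12.4% of the 579 cells without one, and 17.1% against 9.50% had an endothelial read. A neural or glial read was in 16.0% against 8.46%, and an immune read in 24.8% against 23.7%. In young mice these shares were 13.0% against 11.8% (stromal), 14.5% against 11.1% (endothelial), 10.1% against 11.1% (neural or glial) and 34.8% against 22.2% (immune). Old cells with a Ddr2 read also had more detected genes, a median of 9976 against 9246, and its part in these shares was not tested. Of the cells of old mice with a Ddr2 read 97.2% had an Lgr5 read and 81.8% were ISC-led, against 93.4% and 78.2% of those without one. Without all cells that held a stromal or endothelial read, an alternative added after the values were seen, the log2 fold change was 3.48 for Ddr2 (SE 0.54) and 2.75 for Tenm4. In ISC-led cells alone it was 4.21 for Ddr2, 2.98 for Tenm4, 1.04 for Gas7, 1.402 for Ablim1, 1.06 for Tmed6 and 0.78 for Oit1. In a sum per mouse, fewer cells with a transcript and less of it per cell cannot be told apart, which is why both are given above. P-values between ages weigh a difference against the spread between these mice. For comparisons within mice they weigh it against how that difference varies from mouse to mouse.

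Tmed6 followed the Paneth lineage. In Paneth-led cells of young mice 1, 2 and 3 it was at 275, 116 and 209 CPM, against 25.3, 17.5 and 19.6 CPM in ISC-led cells of the same mice. In old mice 1 to 4 it was at 205, 180, 314 and 235 CPM in Paneth-led cells, against 50.3, 30.6, 58.9 and 34.3 CPM. All 7 mice were thus far higher in Paneth-led cells, with no overlap between the classes. The means were 219 ± 64.1 and 33.8 ± 15.6 CPM (SD, n = 7), a log2 difference of 2.77 (SE 0.18, adjusted p = 2.93e-08, Benjamini-Hochberg adjusted, in edgeR's quasi-likelihood test with mouse as a block).

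Gas7 went the other way. In Paneth-led cells it was at 3.26, 3.50 and 0 CPM in the young mice and at 20.1, 15.6, 22.2 and 24.8 CPM in the old mice, against 33.5, 20.0, 14.5, 51.7, 34.5, 55.3 and 45.8 CPM in ISC-led cells of the same mice in that order. Gas7 was lower in Paneth-led cells in 7 of 7 mice, and in young mouse 3 none of the 8 Paneth-led cells held a read. The log2 difference was -1.84 (SE 0.36, edgeR adjusted p = 0.00363). The other 4 genes did not pass, with log2 differences of 0.63 for Ablim1 (adjusted p = 0.124), 0.47 for Oit1 (0.114), -0.16 for Ddr2 (0.815) and -0.15 for Tenm4 (0.891). DESeq2 called Ablim1 (0.68, adjusted p = 0.0442). Oit1 passed in edgeR with thinned reads (0.66, adjusted p = 0.0215) and with clear leads only (0.48, adjusted p = 0.0325). Over all genes 6.1% were called higher and 3.89% lower in Paneth-led cells. The Paneth markers take 22.6% of the reads of Paneth-led cells, and with scaling by library size alone the median log2 difference of all genes was -1.10 and the split of the calls went from 61.1% to 3.90% higher. Under that scaling Oit1 (-0.55) and Ablim1 (-0.38) changed sign. Relative to the median of all genes the differences were alike under both scalings, at 2.87 and 2.86 for Tmed6, -1.74 and -1.76 for Gas7, and 0.57 and 0.55 for Oit1.

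Lyz1, the lysozyme gene of Paneth cells, was at a mean of 168 CPM in ISC-led cells and 81434 CPM in Paneth-led cells, and Lgr5 at 259 and 163 CPM. Paneth-led cells of this sort thus still held Lgr5 reads, and no doublet caller was run.

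Ablim1 was higher in enterocyte-led than in ISC-led cells, which could be compared in 5 mice. It was at 42.0 and 77.9 CPM in enterocyte-led cells of young mice 1 and 3, against 4.79 and 20.4 CPM in their ISC-led cells. In old mice 2, 3 and 4 it was at 34.6, 29.1 and 97.0 CPM against 27.4, 16.7 and 43.4 CPM. All 5 mice were higher, with a log2 difference of 1.42 (SE 0.32, edgeR adjusted p = 0.00298). The step was greater in the young mice, but its difference between ages, a log2 difference of -1.69 (old minus young), had an adjusted p of 0.142 in edgeR's test of the interaction.

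Tmed6 was lower in enterocyte-led cells in 5 of 5 mice, with means of 20.2 ± 6.55 against 41.3 ± 18.0 CPM (SD, n = 5). The log2 difference was -0.999 (SE 0.26, edgeR adjusted p = 0.00768), and without old mouse 4 the adjusted p was 0.0504. Oit1 was higher in 4 of 5 mice and was not called (log2 difference 0.66, SE 0.25, edgeR adjusted p = 0.0551). Without young mouse 1, the single mouse that went the other way, Oit1 had a log2 difference of 0.91 and an adjusted p of 0.00666. Gas7 (-0.77, adjusted p = 0.134), Tenm4 (-1.20, adjusted p = 0.128) and Ddr2 (-0.23, adjusted p = 0.741) did not pass. Gas7 passed without young mouse 3 (-1.22, edgeR adjusted p = 0.0103) and with thinned reads (-1.42, edgeR adjusted p = 0.00213). Tenm4 passed without old mouse 3 (-1.92, edgeR adjusted p = 0.0291). Over all genes 13.6% were called higher and 15.2% lower in enterocyte-led cells, so a call is less rare here than in the other classes. With scaling by library size alone 22.4% rather than 47.2% of the calls were higher, and the median of all genes was -0.65.

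Goblet-led cells could be compared in 4 mice, and no gene of the 6 was called. Oit1 was at 180, 77.5 and 376 CPM in goblet-led cells of old mice 2, 3 and 4 and at 149 CPM in young mouse 3, against 83.9, 75.0, 81.0 and 35.9 CPM in their ISC-led cells. It was higher in 4 of 4 mice, though barely so in old mouse 3, and the log2 difference was 1.37 (SE 0.34, edgeR adjusted p = 0.0873). Without old mouse 3 it was 1.79 with an adjusted p of 0.00506, and DESeq2 gave an adjusted p of 0.0144 over the 4 mice. Gas7 had a log2 difference of -1.01 (adjusted p = 0.365) and Ddr2 one of -2.29 with a wide SE of 1.27 (adjusted p = 0.485). Over all genes 1.7% were called higher and 0.299% lower, and 85% of the calls were higher, against 65.3% with DESeq2 and 73.4% with scaling by library size alone.

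**Figure D3:**
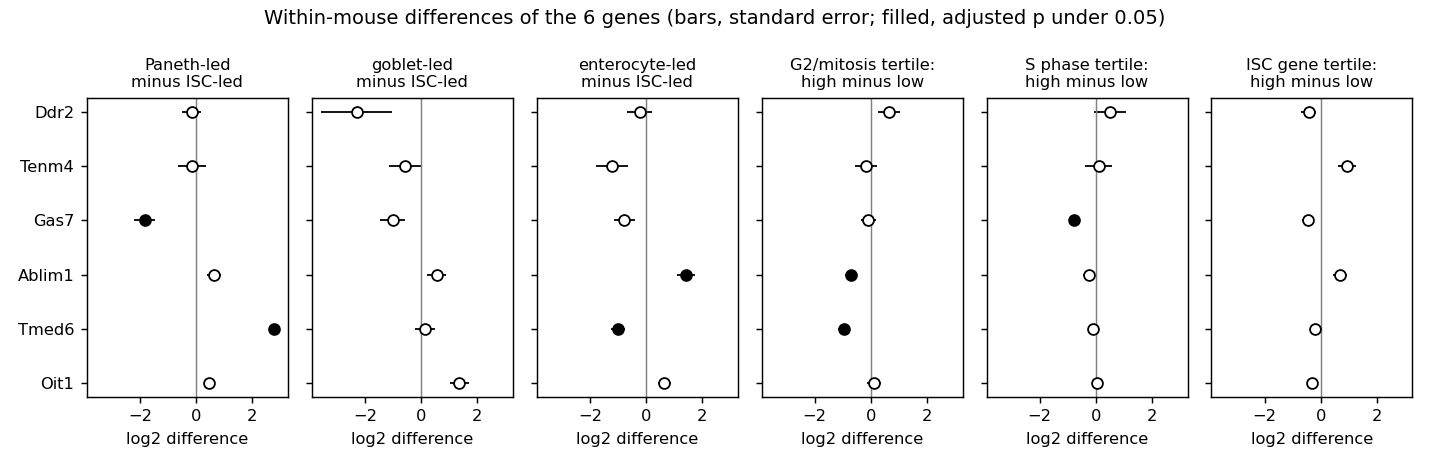
Log2 differences of the 6 genes within mice (horizontal axis), from edgeR with mouse as a block. Bars are standard errors and filled points have an adjusted p under 0.05. Tmed6 is filled in 3 panels, Gas7 and Ablim1 in 2 each, and Ddr2, Tenm4 and Oit1 in none.

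Of enteroendocrine-led and tuft-led cells there were too few for a test, and their values are pooled without regard to mouse or age. The classes are therefore not compared, since Ddr2 and Tenm4 also differed between ages. In 3 enteroendocrine-led cells together Ddr2 had 16.1 CPM and Tenm4 28.1 CPM. In 6 tuft-led cells Ddr2 had 0.669 CPM (2 reads in 1 cell, 95% exact Poisson interval 0.0810 to 2.42 CPM) and Tenm4 14.7 CPM (95% interval 10.7 to 19.8).

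Within the ISC-led cells of each mouse, divided into 3 equal groups (tertiles), the tertile with the highest mean of G2 and mitosis genes was compared with the lowest tertile. Tmed6 was at 15.0, 16.6 and 22.7 CPM in the highest tertile in young mice 1, 2 and 3, against 72.7, 34.6 and 30.5 CPM in the lowest. In old mice 1 to 4 it was at 36.7, 30.1, 62.0 and 38.4 CPM against 87.1, 54.6, 76.8 and 55.8 CPM. Tmed6 was therefore lower in the dividing tertile in 7 of 7 mice, with a log2 difference of -0.94 (SE 0.21, edgeR adjusted p = 0.0133). In the same cells Lyz1 was lower by a log2 difference of -0.68 (edgeR adjusted p = 0.0259, lower in 6 of 7 mice) and Lgr5 by one of -0.83 (edgeR adjusted p = 7.8e-05, lower in 7 of 7), and their part in the result was not tested. Ablim1 was also lower in 7 of 7 mice, with means of 21.1 and 30.6 CPM and a log2 difference of -0.70 (SE 0.21, edgeR adjusted p = 0.0443). That call was lost in 6 of 7 fits without a single mouse, all but the one without young mouse 1, with adjusted p of 0.0501 to 0.0974. Ddr2 (0.65, adjusted p = 0.298), Tenm4 (-0.18, adjusted p = 0.805), Gas7 (-0.09, adjusted p = 0.859) and Oit1 (0.11, adjusted p = 0.801) did not pass. Over all genes 9.13% were called higher and 6.66% lower. The highest tertile had a median of 9952 detected genes per cell and the lowest 8496.5, at similar median depths of 318201 and 315288 reads.

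Along S phase the gene that moved was Gas7. It was at 19.4, 25.8 and 20.4 CPM in the highest tertile by S phase genes in young mice 1, 2 and 3, against 53.2, 42.8 and 27.0 CPM in the lowest tertile. In the old mice it was at 73.0, 37.7, 51.0 and 53.0 CPM against 98.4, 54.5, 129.9 and 80.0 CPM. Gas7 was thus lower in the cells with more S phase transcripts in 7 of 7 mice. The log2 difference was -0.78 (SE 0.16, edgeR adjusted p = 0.0126), and no other gene of the 6 passed. In the same cells Lgr5 was lower by a log2 difference of -0.545 (edgeR adjusted p = 0.0161, lower in 6 of 7 mice). The highest tertile had a median of 9885.5 detected genes per cell and the lowest 8373. The part of Lgr5 and of detected genes in the result was not tested. Over all genes 5.14% were called higher and 3.85% lower, with 57.2% of the calls higher, and 74.6% with scaling by library size alone.

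Along the ISC markers themselves none of the 6 genes was called. Tenm4 was at a mean of 15.3 CPM in the highest and 6.47 CPM in the lowest tertile, higher in 5 of 7 mice, with a log2 difference of 0.95 (SE 0.32, edgeR adjusted p = 0.0827, DESeq2 adjusted p = 0.0154). Ablim1 was at 28.7 and 19.7 CPM, higher in 6 of 7 mice (0.69, SE 0.24, edgeR adjusted p = 0.0900, DESeq2 adjusted p = 0.0250). Ddr2 had a log2 difference of -0.43 (adjusted p = 0.319), and was called in none of the 6 comparisons within mice. Over all genes 3.04% were called higher and 6.21% lower, with 32.8% of the calls higher, and 62.0% with scaling by library size alone, which moved the median of all genes to 0.18.

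**Figure D4:**
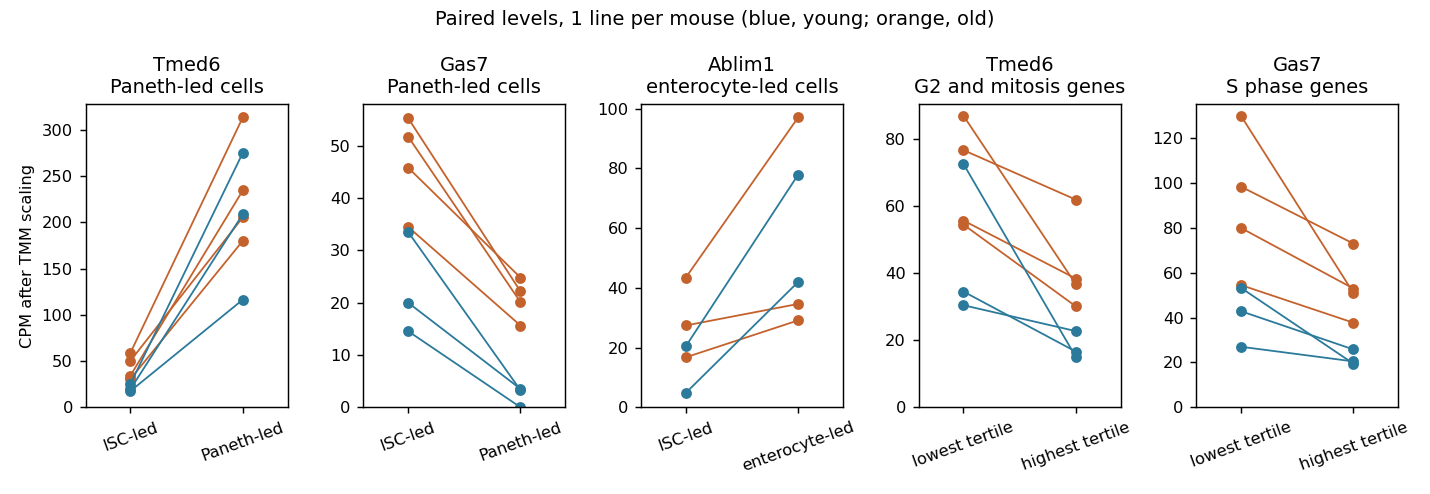
Levels for 5 of the 7 calls within mice, in CPM after TMM scaling (vertical axes, from 0), with 1 line per mouse joining the values of its 2 groups of cells (blue young, orange old). Each panel's lines all go one way, up for Tmed6 in Paneth-led and Ablim1 in enterocyte-led cells and down for the other 3.

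Whether these steps differed between young and old mice was tested by the interaction of age and class. No gene of the 6 was called. Over all genes 0% were called for Paneth-led cells, 0.413% for enterocyte-led cells, and 0% each for the tertiles by G2 and mitosis, S phase and ISC genes. Gas7 came nearest for Paneth-led cells, with 2.17 more on the log2 scale in old mice (SE 0.57, unadjusted p = 0.00167 and adjusted p = 1 in edgeR's quasi-likelihood test). Ddr2 along G2 and mitosis genes had a difference of -1.86 (SE 0.59, unadjusted p = 0.0106 and adjusted p = 1 in the same test). Goblet-led cells had 1 young mouse and were not tested.

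Across the cells of a mouse the 6 genes rose and fell together only weakly. The mean over 7 mice of Pearson's r of log2(CPM + 1) was -0.013 to 0.140 over the 15 pairs, with a median of 0.0846, and 0.0373 after thinning. The pairs with the highest r were Tmed6 with Oit1 at 0.140 and Tenm4 with Ablim1 at 0.139. These r are descriptions across cells, which share a library and differ in depth. The r of each gene with the number of detected genes was as large or larger, from 0.0994 for Gas7 to 0.405 for Oit1.

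The genes most like each of the 6 were sought among 14764 genes with a read in at least 10% of the cells, again by the mean r over 7 mice. For Ddr2 they were 3110045C21Rik (r 0.391), Pdx1 (0.226), Gm16559, Adh1 and Onecut2. Pdx1 and Onecut2 encode transcription factors known from the duodenum. For Tenm4 they were C230038L03Rik (0.287), Igfbp4, Acot1, Rev3l and Lgr5 (0.197). For Gas7 they were Glp2r (0.572), Bex4, Bex1, Rdh1 and Tceal7. For Ablim1 they were Vwa8 (0.235), Mfsd1, Mindy1, Serinc1 and Cd47, and for Oit1 Esrp1, Ldha, Uqcrh, Ociad1 and Hdlbp (0.325 to 0.332). For Tmed6 they were AV064505 (0.276), Pla2g2a (0.273), Rab3d, Txndc5 and Nucb2. Pla2g2a encodes a secreted phospholipase of Paneth cells.

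The leading gene for Ddr2, Tenm4 and Gas7 overlaps it on the opposite strand at its 3′ end. 3110045C21Rik (chromosome 1, 169969409 to 169972396, plus strand) shares 90 exonic bases with Ddr2. C230038L03Rik (chromosome 7, 96906826 to 96951886, minus strand) shares 988 exonic bases with Tenm4. Glp2r (chromosome 11, 67661502 to 67771153, minus strand), the receptor of glucagon-like peptide 2, shares 66 exonic bases and 27489 bases in all with Gas7. Smart-seq2 does not mark strand, so reads from the shared bases cannot be told apart, and how the counting treated them is not given in the sources used here. Ddr2 had 5760 reads in all cells and 3110045C21Rik 2282, Tenm4 6349 and C230038L03Rik 2463, and Gas7 27395 and Glp2r 1758.

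Reads of the overlapping gene and of the 6 were often in the same cells. Gas7 was read in 96.2% to 100% of the cells with a Glp2r read in young mice, against 19.9% to 31.7% of the cells without one. In old mice it was read in 95.9% to 100% against 53.6% to 60.3%. The level of Gas7 in cells without a Glp2r read was 7.13 to 29.1 CPM in young and 24.1 to 31.8 CPM in old mice, so that the ages overlapped there. Ddr2 was read in 37.0% to 44.4% of the cells with a 3110045C21Rik read in young mice and in 63.8% to 74.1% in old mice. In cells without such a read Ddr2 was found in 2.22% to 3.44% in young and 18.5% to 32.4% in old mice. The ages did not overlap on either side, but nothing is read from that, since Ddr2 was chosen on the same contrast. The part of the shared bases in the age difference was not tested. The level of 3110045C21Rik itself was 4.94 ± 5.48 CPM in young (SD, n = 3) and 4.04 ± 1.83 CPM in old mice (SD, n = 4). It was not called (log2 fold change -0.24, edgeR adjusted p = 1.00). The young mean rested on young mouse 1, at 11.2 CPM, against 2.47 and 1.13 CPM in young mice 2 and 3. Old mice 1 to 4 were at 2.99, 3.45, 6.77 and 2.98 CPM, each above young mice 2 and 3. Glp2r was at 1.497 ± 0.0611 and 4.13 ± 1.91 CPM (log2 fold change 1.52, SE 0.41, edgeR adjusted p = 0.573). Tenm4 was read in 13.1% to 20.4% of the cells with a C230038L03Rik read in young mice, against 5.91% to 9.01% without one. In old mice the shares were 21.3% to 72.9% against 14.8% to 40.2%. In cells without such a read Tenm4 was at 0.907 to 2.47 CPM in young and 4.11 to 14.8 CPM in old mice. This too is the contrast by which it was chosen. C230038L03Rik was at 3.05 ± 0.289 and 4.37 ± 1.18 CPM (log2 fold change 0.58, SE 0.31) and was not called.

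Pdx1 does not overlap Ddr2. It was picked for its r with Ddr2 across these cells, so that the following shares only describe that choice. Ddr2 was read in 11.9% to 20.0% of the cells with a Pdx1 read in young mice, against 4.73% to 7.14% without one. In old mice it was read in 53.3% to 71.1% against 24.1% to 33.7%. Pdx1 was at 5.86 ± 0.569 CPM in young (SD, n = 3) and 4.46 ± 2.22 CPM in old mice (SD, n = 4) and was not called between ages (log2 fold change -0.33, edgeR adjusted p = 1.00). The part of depth and of intestinal region in this pattern was not tested.

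**Figure D5:**
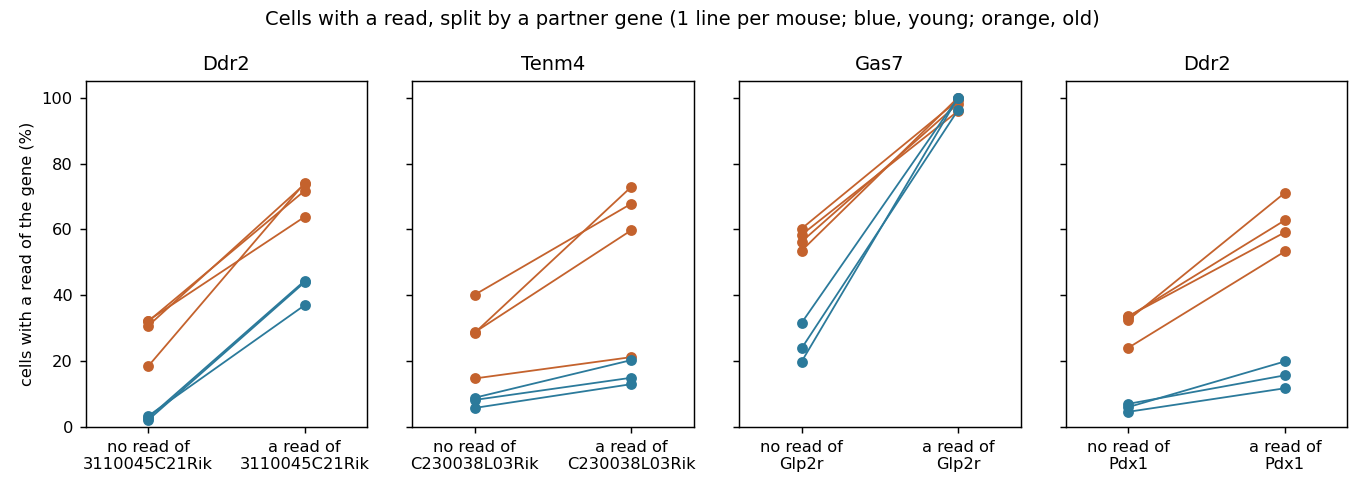
Percent of the kept cells of a mouse with a read of Ddr2, Tenm4 or Gas7 (vertical axis, 0 to 105), split by whether the cell has a read of the partner gene named below each pair of points (1 line per mouse, blue young, orange old). The partners were picked for their r with the gene in these cells, so the rise of the lines describes that choice. The old mice are above the young mice in shares of cells without the partner's read, in the contrast by which the genes were chosen. The levels of Gas7 in such cells overlap.

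Related genes were taken from 72 members of the families of the 6. Between ages 58 were tested, 0 were called by edgeR's quasi-likelihood test after Benjamini-Hochberg adjustment and 3 had an unadjusted p under 0.05. Among all 20957 genes 1098 had such a p, a like share. The 3 were Ddr1, Adgrl2 and Tmed3, and nothing is read from their number or direction. Ddr1, the epithelial paralog of Ddr2, was at 91.9 ± 9.70 CPM in young (SD, n = 3) and 71.3 ± 3.04 CPM in old mice (SD, n = 4), a log2 fold change of -0.37 (edgeR adjusted p = 0.849). Adgrl2, a latrophilin that can bind teneurins, was at 34.7 ± 7.10 and 20.9 ± 6.09 CPM (-0.73, edgeR adjusted p = 0.821). Tmed3, a p24 protein like Tmed6, was at 78.0 ± 8.39 and 99.2 ± 8.38 CPM (0.35, edgeR adjusted p = 0.928). Itgb1, the shared chain of collagen-binding integrins, was at 82.9 ± 3.06 and 82.8 ± 11.7 CPM. Ddr1 and Ddr2 thus stood at very different levels in the same cells, with Ddr1 at 16.8 CPM per kb over the 7 mice.

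In Paneth-led cells 10 of 53 tested were higher and 2 lower, beside the 6.1% and 3.89% of all genes. Among them were the p24 genes Tmed3 (log2 difference 1.95, edgeR adjusted p = 1.87e-06), Tmed7 (1.19, 0.00380) and Tmed10 (0.53, 0.0154), whereas Tmed1 was lower (-0.99, 0.00555). Sec24d, a cargo subunit of the COPII coat, was higher by 4.25 (edgeR adjusted p = 8.98e-09), and Fam3b, a relative of Oit1, by 3.97 (0.00444). In enterocyte-led cells 19 of 52 were higher and 7 lower, beside 13.6% and 15.2% of all genes. Vil1, with a villin headpiece as in Ablim1, was higher (2.36, edgeR adjusted p = 1.39e-07), and Avil was lower (-3.55, 0.00346). Of the 13 COPII genes 10 were higher there, beside the same 13.6%. Of the p24 genes Tmed4 was higher (1.01, edgeR adjusted p = 0.000272) and Tmed9 and Tmed1 were lower (-1.18 and -0.80). In goblet-led cells 4 of 52 were higher and 0 lower, beside 1.7% and 0.299% of all genes, among them Tmed3 (1.55, edgeR adjusted p = 0.00276). Between the tertiles by G2 and mitosis genes 3 of 51 were higher and 3 lower, beside 9.13% and 6.66% of all genes. By S phase genes 4 of 52 were higher and 1 lower, beside 5.14% and 3.85%. By ISC genes 2 of 52 were higher and 4 lower, beside 3.04% and 6.21%.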

How the data were processed

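The deposited table holds whole read counts for each gene in each cell, which the authors left unscaled. Per the labels and the methods, HISAT2 placed the single-end reads on GRCm38 and Picard was used for mapping quality. HTSeq is named in the submitters' processing notes without its role, and whether strand was used is not given in the sources used here. Of 55471 identifiers 55144 were matched to a symbol.

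A cell was kept if it had at least 1000 detected genes, and columns were assigned to mice by their names. The 6 genes and the marker and family lists were chosen with earlier results of these data known. Counts were summed per mouse, or per mouse and class of cells, and fitted over all genes with edgeR 4.0.16 under R 4.3.3 (TMM scaling, quasi-likelihood test, genes with low counts filtered out, p-values adjusted by Benjamini-Hochberg and called at 0.05). DESeq2 1.42.0 was an alternative, and an adjusted p it gave as missing stayed missing. Comparisons within mice had mouse as a block, since both groups of cells came from 1 animal, and needed at least 5 cells of the class in each of at least 4 mice. Replicate numbers of young and old mice mark no shared litter or day. The genes that define a class or tertile are not results. Cells and correlations were handled with numpy 2.4.6, pandas 2.3.3 and scipy 1.17.1 (Python 3.11.15).

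Named genes are the 6, the 5 most alike genes of each, called relatives (at most 4 a family) or otherwise the most abundant relative, and genes that check the classes. Col1a1 and the other stromal markers, Ddr1, Adgrl2 and other relatives outside that rule were added after their values were seen. Alternatives were other scaling and tools, no filter, at least 2500 detected genes (1808 cells), cells with an Lgr5 read, clear leads, other weights and blocks (among them the code that ends the cell names), reads thinned to 100000 per cell (1732 cells), and each mouse left out. The fits were tested on simulated data. No doublet caller was run. A single called relative is not reported here, and the counts include it.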

Additional observations from a re-analysis of the deposited data

Results flagged for a closer look

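In 54 groups of 4 to 7 mice the mouse farthest from the others was checked, of which chance marks about 1 in 20, and 2 stood apart. Old mouse 1 had a Ddr2 read in 26.5% of its cells, far below the other 3 old mice (40.2% to 41.9%) and still above the young mice. The cause was not tested. Along G2 and mitosis genes Ablim1 in young mouse 1 had a log2 difference of -1.77 between the highest and lowest tertile, where it was at 2.78 and 11.9 CPM, further down than in the other 6 mice. The fit without that mouse was the one leave-out in which the Ablim1 call was kept.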

How the results depend on the processing

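Because the genes were chosen for being higher in old mice, nothing is read from the sign of their age log2 fold changes. All 6 log2 fold changes kept that sign in every setting run. With the replicate block, which pairs mice that share only a number, they were 4.42 for Ddr2, 2.52 for Tenm4, 1.05 for Gas7, 1.299 for Ablim1, 1.15 for Tmed6 and 0.82 for Oit1, and leaving out a mouse gave 3.85 to 4.86 for Ddr2, 2.54 to 3.28 for Tenm4, 0.76 to 1.36 for Gas7, 1.02 to 2.02 for Ablim1, 0.90 to 1.31 for Tmed6 and 0.64 to 1.05 for Oit1. The highest value for Ablim1 was without young mouse 3. Numbers of genes called moved more. Paneth-led cells had 1670 calls, 2887 with DESeq2, 11244 with scaling by library size alone and 1005 to 1461 without 1 mouse. Goblet-led cells had 340, 1180 with DESeq2, 571 thinned, 155 in cells with an Lgr5 read and 150 to 421 without 1 mouse. Enterocyte-led cells had 4826, and 2882 with clear leads only. The tertiles by G2 and mitosis genes had 2577, and 3983 thinned. Those by S phase genes had 1460, 2823 with DESeq2, 2738 thinned, 631 without the replicate block and 758 to 1594 without 1 mouse. Those by ISC genes had 1560, 3277 with DESeq2, 813 without the replicate block and 674 to 1470 without 1 mouse. The cause was not tested. Oit1 in Paneth-led cells reversed to -0.55 with scaling by library size alone, by construction of the shift of all genes. Without the block on mouse the calls of Gas7 in Paneth-led cells (adjusted p = 0.0763) and by S phase (0.228), and of Tmed6 and Ablim1 by G2 and mitosis (0.0752 and 0.524, all edgeR), were lost. The median r of the 15 pairs within a mouse, averaged over mice, was 0.0784 and 0.0393 thinned. Clear leads in goblet-led cells could not be fitted. With 3 and 4 mice, and few cells in the rarer classes, a p that misses the threshold does not show that a gene is level.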
